A study of Mus musculus with 20 samples.

Results

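The genes described here are 9 that encode surface, secreted and signalling proteins and were lower in day 1 aggregates of one or more of the lines BP14A, B and P14 than in the parental line: Podxl, Thy1, Nt5e, Trh, Efemp1, Taok3, Klhl14, Lratd1 and Lzts1. Every probe set that the platform annotation assigns to one of these symbols was taken, which gave 15 probe sets for 9 of 18193 genes on the array. All 9 are among the 14010 genes that passed the filter on dim probe sets. The genes were selected on their measured day 1 values in those lines against the parental line, so these differences are given as a description, without a test.

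RNA was measured on 20 one-colour arrays, 2 in each of 10 groups that cross 5 mouse embryonic stem cell lines with 2 stages. All lines are labelled male, of C57BL/6;129 background, and carry the reporters Blimp1-mVenus and stella-ECFP and the doxycycline-dependent activator rtTA at Rosa26. BP14A carries in addition piggyBac transgenes for Avi-Blimp1, 3xFLAG-Prdm14 and V5-Tfap2c under a tetO minimal CMV promoter, B only the Blimp1 transgene, P14 only Prdm14 and A only Tfap2c, while the parental line carries none. Day 1 aggregates were kept for 24 h with 1.5 μg/ml doxycycline in GK15 medium, and epiblast-like cells (EpiLCs), a culture state near the early post-implantation epiblast, were taken after 36 h of differentiation. Each line is a single clone, which means that the effect of a transgene and that of its clone cannot be told apart. The 20 arrays include no aggregates kept without doxycycline. EpiLCs and day 1 aggregates therefore differ in time, culture and doxycycline together, and these cannot be told apart within a line. Nothing in the labels beyond the words biological duplicates says how the 2 arrays of a group were produced, so errors measure the spread between those arrays.

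The epiblast is a polarised epithelium, and cells that take the germ-cell path leave it and change the proteins they show at their surface and send out. Blimp1 and Prdm14 act mainly as repressors in early germ cells, where they shut down genes of the somatic programme. Podxl encodes podocalyxin, a sialomucin of apical membranes, Thy1 a small glycoprotein held by a GPI anchor, and Nt5e the GPI-anchored ecto-5′-nucleotidase CD73, which turns extracellular AMP into adenosine. Trh encodes the precursor of thyrotropin-releasing hormone, and Efemp1 fibulin-3, a protein of the extracellular matrix. Taok3 encodes a kinase of the Ste20 type that acts upstream of stress-activated MAP kinases. Klhl14 encodes a Kelch-repeat protein, Lratd1 a protein with an LRAT domain, and Lzts1 a leucine-zipper protein of the cell cortex linked to cell division.

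Annotated promoters from RefSeq (GRCm38.p6, 250 bases before to 50 after the start) were found for 5 of the 9 genes, and 3 are printed because their genes differ in line B: Trh and Nt5e were lower in all 3 lines, Efemp1 was not lower in B. Capitals mark a TATAA in Trh and the matches to the AP-2 core GCCNNNGGC in Nt5e. The windows are Trh at chr6:92244601-92244900 on the minus strand, Nt5e at chr9:88327359-88327658 on the plus strand and Efemp1 at chr11:28852955-28853254 on the plus strand.
Trh: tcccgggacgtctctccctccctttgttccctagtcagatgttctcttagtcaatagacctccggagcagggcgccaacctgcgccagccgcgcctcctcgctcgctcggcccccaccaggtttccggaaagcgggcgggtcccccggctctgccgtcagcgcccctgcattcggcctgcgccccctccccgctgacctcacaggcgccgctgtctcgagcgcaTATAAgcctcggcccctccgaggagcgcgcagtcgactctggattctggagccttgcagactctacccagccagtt
Nt5e: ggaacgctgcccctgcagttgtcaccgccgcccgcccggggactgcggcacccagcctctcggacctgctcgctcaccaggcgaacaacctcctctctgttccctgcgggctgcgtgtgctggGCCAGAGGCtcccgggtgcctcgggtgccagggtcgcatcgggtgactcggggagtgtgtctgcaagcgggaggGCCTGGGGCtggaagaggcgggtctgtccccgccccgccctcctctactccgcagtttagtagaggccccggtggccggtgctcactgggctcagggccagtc
Efemp1: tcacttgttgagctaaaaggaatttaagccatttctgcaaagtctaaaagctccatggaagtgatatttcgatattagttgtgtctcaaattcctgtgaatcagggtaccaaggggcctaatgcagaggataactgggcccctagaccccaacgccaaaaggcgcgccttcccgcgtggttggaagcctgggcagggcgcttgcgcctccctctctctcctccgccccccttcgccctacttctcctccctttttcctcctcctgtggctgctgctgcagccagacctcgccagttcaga
Searched on both strands, the Blimp1 core GAAAGTG and the Prdm14 core GGTCTCT had no match in any of the 5 windows, while they occur in 4.81% and 5.68% of 32851 promoters of this length. GCCNNNGGC, which reads the same on both strands, matched at positions −127 and −53 of Nt5e with the start base counted as 0, and at none of the other 4, against 16.6% of all promoters. TATAA, a pattern added after the Trh sequence was seen, lay at position −26 of Trh and in none of the other 4, against 24.9% of all promoters. The windows of Nt5e, Trh, Taok3 and Lratd1 were rich in G and C, at 71.0%, 67.0%, 65.3% and 65.0%, and that of Efemp1 held 54.3%, beside a median of 52.7% over all promoters. CpG dinucleotides numbered 28 in Trh, 27 in Taok3, 23 in Nt5e, 23 in Lratd1 and 11 in Efemp1, and the median promoter had 7. A match is no measured site, and no match says only that these letters are not in the window.

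The deposited log2 values ran up to 13.83, the median of an array was 4.59 to 4.86, and replicate arrays correlated at Pearson r of 0.9659 to 0.9758 over all probe sets, which are not independent replicates. Calls required a log2 change of at least 1 in size together with a limma p, adjusted by Benjamini-Hochberg over the 14010 genes, under 0.05. The level 3.95, the 40th percentile of all values, was the filter level, and a difference measured against a mean below it is approximate. Tfap2c read 5.80 and 6.08 in day 1 aggregates labelled A, against 6.38 and 6.29 in the parental line, and 9.38 to 11.58 on the day 1 arrays of BP14A, B and P14. Prdm14 on day 1 read 3.40 and 4.67 in BP14A, 3.95 and 4.05 in B and 3.21 and 3.80 in P14, against 3.59 and 3.67 in the parental line. Prdm1 read 8.63 and 8.71 in BP14A, 6.25 and 6.47 in B and 7.23 and 7.39 in P14, against 4.90 and 5.01. The sources do not say whether these probe sets read the transgenes, so they check no label. Over both stages the Y-linked gene Eif2s3y read 0.71 to 2.22 in line B, 6.50 to 7.38 in BP14A and 7.07 to 7.97 in A, against 9.16 to 9.56 in the parental line. In P14 it read 4.51 and 4.71 in EpiLCs and 2.17 and 2.39 on day 1. Y-linked Uty read 2.19 to 2.94 in B and 4.06 to 4.66 in P14, against 8.02 to 8.65 in BP14A, A and the parental line. These clone differences were present before doxycycline, and that of Eif2s3y in P14 was larger on day 1.

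**Figure D1:**
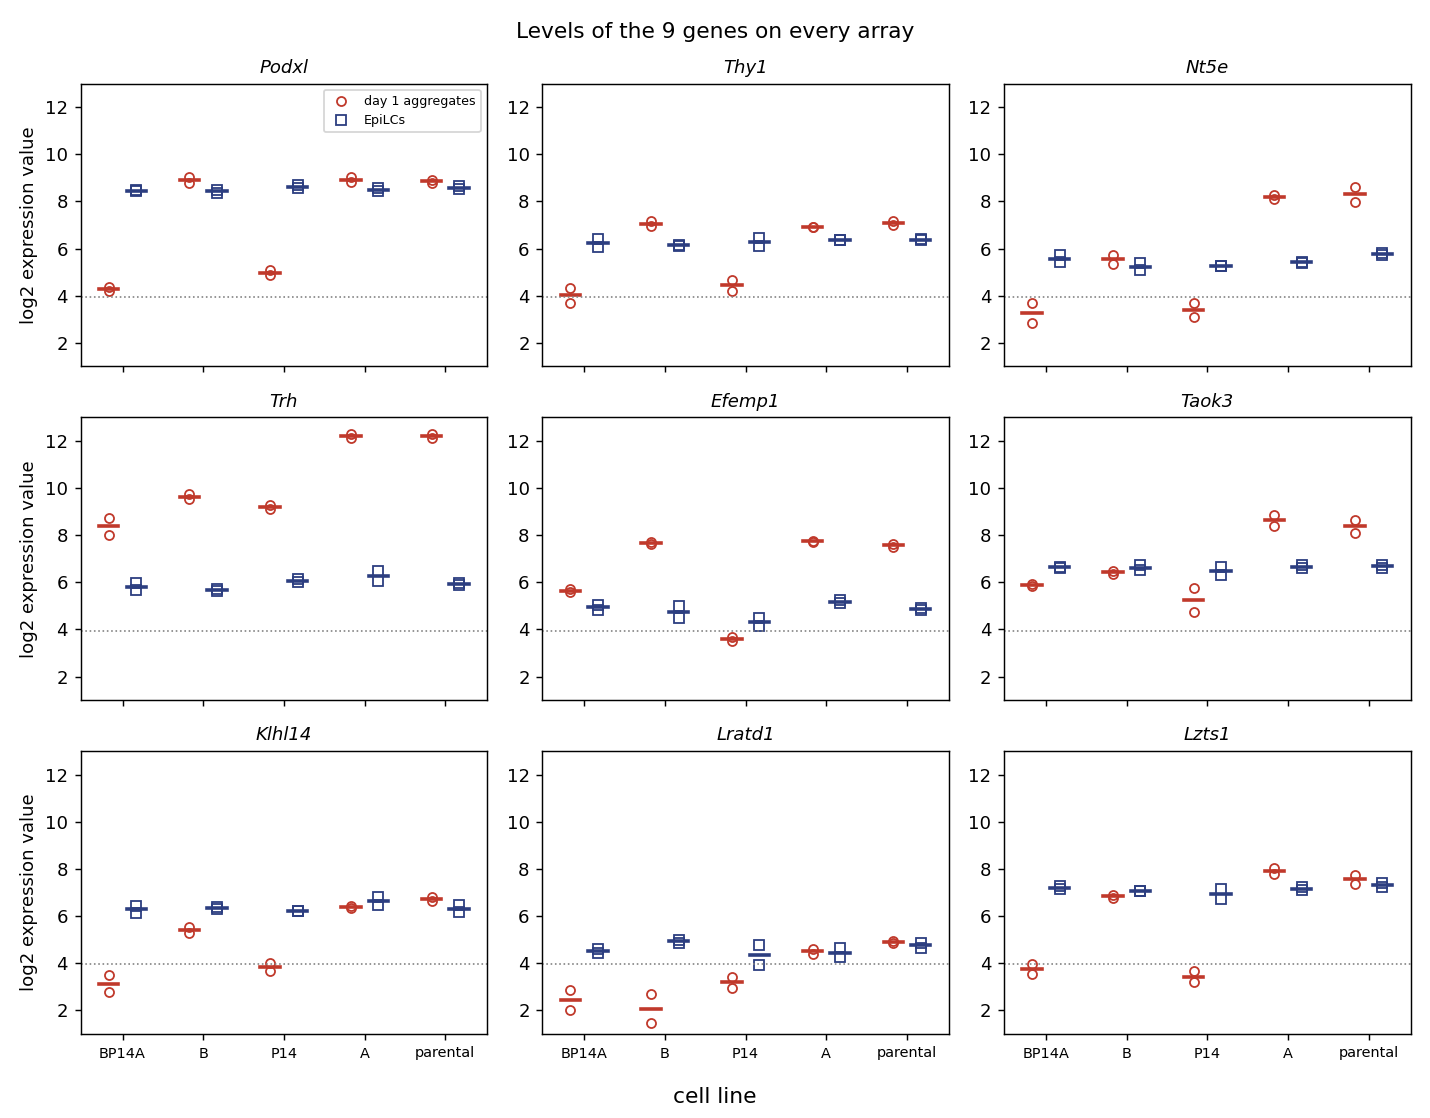
Levels of the 9 genes in every array, as deposited log2 values, by line on the horizontal axis; red circles are day 1 aggregates, blue squares EpiLCs, bars the mean of 2 arrays and the dotted line the filter level of 3.95. The EpiLC values of a gene lie within a range of at most 1.09 over 10 arrays, while day 1 values range over 3.44 to 5.78.

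Before doxycycline the 5 lines had similar levels of the 9 genes, and no member was called in any line against the parental EpiLCs. Podxl ran from 8.38 to 8.70 with a median of 8.50 over the 10 EpiLC arrays, a range of 0.32. Thy1 ran from 6.08 to 6.46, a range of 0.38, and Taok3 from 6.33 to 6.74, a range of 0.41. The widest ranges were those of Lratd1, from 3.91 to 5.00, and Efemp1, from 4.15 to 5.23. These arrays took no part in choosing the genes, but they come from the same clones as the day 1 arrays that did. A clone difference present at both stages would enter both, so the comparison is not free of that choice. In limma, 0 of 9 members were called in BP14A, B, P14 or A EpiLCs, and 0, 0, 1 and 0 had an unadjusted p under 0.05. Over all genes 0.0143%, 0.0785%, 0.0357% and 0.0286% were called in BP14A, B, P14 and A. With so few genes called, 0 of 9 does not set the members apart from other genes. The member with the unadjusted p under 0.05 was Efemp1, at 4.50 and 4.15 in P14 EpiLCs against 4.91 and 4.83 in parental EpiLCs, a difference of −0.55 ± 0.15 (SE, limma adjusted p = 0.484). Nt5e stood at −0.55 ± 0.28 in B (limma adjusted p = 0.519) and at −0.51 ± 0.28 in P14 (limma adjusted p = 0.910), with both arrays of each line below both parental arrays. The arrays of BP14A and A also lay below both parental arrays for Nt5e, at −0.205 ± 0.28 and −0.365 ± 0.28 (limma adjusted p = 0.921 and 0.824). How many of all genes separate in this way was not counted, so the separation is a description only. Over the 36 member values of the 4 lines, the differences ran from −0.55 to 0.33. Most were below 0, for 8, 7, 7 and 6 of the 9 members in BP14A, B, P14 and A. Member medians were −0.13, −0.16, −0.19 and −0.02, beside medians over all genes of −0.01, 0.02, −0.015 and −0.015. The 4 comparisons share the parental EpiLC arrays, and this lean was not tested.

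Between EpiLCs and day 1, 4 of the 9 genes rose in the line labelled A and in the parental line, the neuropeptide precursor Trh by the largest amount. In the line labelled A, none of whose arrays took part in choosing the genes, Trh read 12.13 and 12.29 on day 1, against 6.50 and 6.04 in EpiLCs, a rise of 5.94 ± 0.21 (SE, limma adjusted p = 1.94e-08). Nt5e read 8.10 and 8.27 against 5.38 and 5.44, a rise of 2.77 ± 0.28 (limma adjusted p = 1.48e-05), and Efemp1 read 7.73 and 7.77 against 5.23 and 5.12, a rise of 2.57 ± 0.15 (limma adjusted p = 2.56e-07). Taok3 read 8.86 and 8.39 on day 1 and 6.72 and 6.60 in EpiLCs, a rise of 1.97 ± 0.27 (limma adjusted p = 0.000169). In each of these both day 1 arrays lay above both EpiLC arrays. These were 4 of 9 members called higher and 0 lower in that line, where 3.58% of all genes were called higher. The line labelled A was close to the parental line on day 1, with 0.0286% of all genes called between them. Choosing genes that were high in parental aggregates can therefore favour rises in A too, so this count is not free of the choice. The remaining 5 moved by between −0.25 and 0.76, less than the limit for a call, with Lzts1 at 0.76 ± 0.19 (limma adjusted p = 0.00998), Thy1 at 0.56 ± 0.20 (limma adjusted p = 0.0493) and Podxl at 0.42 ± 0.12 (limma adjusted p = 0.0145).

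The parental line showed the same 4 calls among 9 members, Trh, Nt5e, Efemp1 and Taok3, with rises of 6.25, 2.52, 2.70 and 1.70 and 3.97% of all genes called higher. Its day 1 arrays were also used in choosing the genes, which favours high day 1 values there. With all probe sets of a gene averaged, the rise of Taok3 in the parental line was 0.96 and was no longer called. The changes in the line labelled A and in the parental line were compared directly, and the difference between them was called for 0 of 9 members and 0 of 14010 genes in limma, with 0 members and 652 genes at an unadjusted p under 0.05. On day 1 itself, A differed from the parental line by −0.42 to 0.37 over the members, with 0 of 9 called, 0 at an unadjusted p under 0.05 and 0.0286% of all genes called. That comparison shares the parental day 1 arrays with those that chose the genes. A difference smaller than 1 on the log2 scale would not have been called in either comparison.

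**Figure D2:**
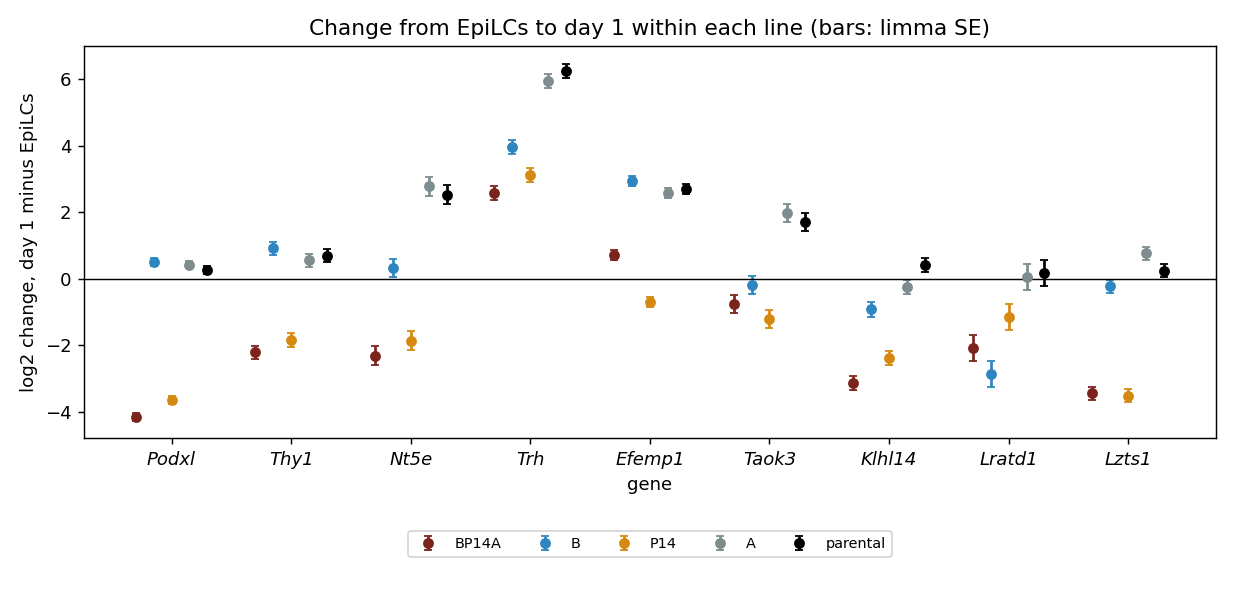
Change from EpiLCs to day 1 within each line (log2, day 1 minus EpiLCs, bars are limma SE), by gene. Trh lies above 0 in all 5 lines, at 2.56 in BP14A and 6.25 in the parental line, and Podxl, Thy1, Klhl14 and Lzts1 lie at −1.85 or lower in BP14A and P14.

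On day 1, the apical sialomucin Podxl separated the lines that carry Prdm14 from the rest. Its brightest probe set read 4.38 and 4.22 in BP14A, 8.80 and 9.05 in B, 5.09 and 4.87 in P14 and 8.81 and 9.03 in A, against 8.92 and 8.78 in parental aggregates. BP14A lay lowest, P14 next, and the arrays of B, A and the parental line overlapped. The difference from the parental line was −4.55 ± 0.12 (SE) in BP14A, −3.87 ± 0.12 in P14 and 0.08 ± 0.12 in B, which is 23.4-fold and 14.6-fold lower in the first pair. At the dimmer probe set of Podxl, BP14A and P14 differed from the parental line by only −0.58 ± 0.22 and −0.91 ± 0.22, and their arrays overlapped each other. As these arrays are bulk samples, fewer cells with the transcript and less transcript per cell cannot be told apart, here or for any gene below. Podxl was also 4.16 lower on day 1 than in EpiLCs of BP14A and 3.65 lower in P14, where the EpiLC arrays read 8.44 to 8.70.

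Thy1 followed the same pattern at a lower amplitude. Day 1 arrays read 3.71 and 4.34 in BP14A, 6.97 and 7.15 in B, 4.22 and 4.66 in P14 and 6.91 and 6.92 in A, against 6.98 and 7.15 in the parental line. Both BP14A and P14 arrays, which overlap each other, were below every array of the other 3 lines. BP14A differed from the parental line by −3.04 ± 0.20 and P14 by −2.63 ± 0.20 (SE), while B differed by −0.01 ± 0.20. Thy1 is also a marker of fibroblasts, which serve as feeders in some stem cell cultures. Of the 11 fibroblast markers on the array Col1a1, Fap, Pdgfrb and Postn had means below the filter level in all 10 groups. The summed log2 level of those 11 genes on day 1 was 47.8 to 48.9 in BP14A, 51.0 to 54.6 in B, 47.9 to 48.6 in P14 and 48.8 to 51.2 in A, against 50.7 to 50.8 in the parental line. Others of the 11 lay above the filter level, with Tagln at 9.51 and Dcn at 7.245 in parental day 1 aggregates. Of the 7 of the 11 that passed the filter, Dcn was called lower in BP14A, at 6.18. Acta2 was called higher in B, at 7.815 against 6.14 in the parental line. Tagln rose by 2.86 from EpiLCs to day 1 in the parental line (limma adjusted p = 4.11e-06). It was called in no line against the parental line on day 1. Whether feeder cells were present was not tested.

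Nt5e was lower in all 3 lines, by an amount that depends on the probe set. Its brightest probe set read 3.67 and 2.84 in BP14A, 5.35 and 5.74 in B, 3.70 and 3.10 in P14 and 8.10 and 8.27 in A, against 8.62 and 7.98 in parental aggregates. The 3 lines were all below A and the parental line, with B between and BP14A and P14 overlapping each other. Differences from the parental line were −5.04 ± 0.28 in BP14A, −2.75 ± 0.28 in B and −4.90 ± 0.28 in P14 (SE), or 33.0-fold, 6.75-fold and 29.9-fold lower. In B the day 1 level overlapped that of its EpiLCs, at 5.39 and 5.07, where A and the parental line had risen. BP14A and P14 had day 1 means of 3.25 and 3.40 that lie below the filter level, against 5.57 and 5.27 in their EpiLCs.

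Among the secreted proteins, Trh kept part of its rise in every line. Day 1 arrays read 8.74 and 8.01 in BP14A, 9.55 and 9.73 in B, 9.28 and 9.10 in P14 and 12.13 and 12.29 in A, against 12.28 and 12.11 in the parental line. B, P14 and BP14A followed each other downward without overlap, and all were below A and the parental line. The differences from the parental line were −3.82 ± 0.21, −2.56 ± 0.21 and −3.01 ± 0.21 (SE) in BP14A, B and P14. Within the lines, day 1 was still 2.56, 3.96 and 3.12 above EpiLCs in BP14A, B and P14. In all 5 lines both day 1 arrays of Trh lay above both EpiLC arrays.

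Efemp1 was lowest in P14, with BP14A between P14 and the other lines. It read 5.70 and 5.57 in BP14A, 7.61 and 7.73 in B, 3.53 and 3.70 in P14 and 7.73 and 7.77 in A, against 7.64 and 7.50 in the parental line. The arrays of A, B and the parental line overlapped, and BP14A lay below them and above P14. BP14A differed from the parental line by −1.94 ± 0.15, B by 0.10 ± 0.15 and P14 by −3.96 ± 0.15 (SE), so BP14A stood 2.02 ± 0.15 above P14. Within BP14A the gene was 0.70 above its EpiLCs and within P14 0.71 below them, to a mean under the filter level.

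The kinase gene Taok3 was lower in all 3 lines. Its brightest probe set read 5.83 and 5.91 in BP14A, 6.47 and 6.37 in B, 5.77 and 4.75 in P14 and 8.86 and 8.39 in A, against 8.64 and 8.11 in parental aggregates. A and the parental line overlapped, B lay below both, and BP14A and P14 lay lower still. The differences from the parental line were −2.51 ± 0.27, −1.96 ± 0.27 and −3.12 ± 0.27 (SE) in BP14A, B and P14. Relative to EpiLCs, Taok3 was lower by 0.77 in BP14A, by 0.21 in B and by 1.23 in P14, where A and the parental line had gained 1.97 and 1.70. In P14 the 2 arrays differed by more than in other lines, and without P14 day 1 replicate 2 the gene stood at −0.71 against its EpiLCs and at −0.65 against B on day 1, where both arrays gave −1.23 and −1.16.

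Klhl14 and Lzts1 lay within 0.76 of their EpiLC level in A and the parental line and far below it in the lines with Prdm14. Klhl14 read 3.48 and 2.78 in BP14A, 5.55 and 5.26 in B, 4.02 and 3.65 in P14 and 6.32 and 6.42 in A, against 6.64 and 6.79 in the parental line. Its 5 lines followed each other on day 1 without overlap, and the differences from the parental line were −3.58 ± 0.21 in BP14A, −1.31 ± 0.21 in B and −2.88 ± 0.21 in P14 (SE). Lzts1 read 3.54 and 3.97 in BP14A, 6.78 and 6.88 in B, 3.18 and 3.66 in P14 and 8.05 and 7.80 in A, against 7.74 and 7.38 in the parental line. BP14A and P14 overlapped and lay below B, which lay below the parental line. The differences of Lzts1 were −3.80 ± 0.19 in BP14A, −0.73 ± 0.19 in B and −4.14 ± 0.19 in P14 (SE). Means of Klhl14 and Lzts1 lay below the filter level in BP14A and P14.

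Lratd1 was the only member with its lowest mean in B. It read 2.00 and 2.87 in BP14A, 2.68 and 1.44 in B, 2.95 and 3.41 in P14 and 4.62 and 4.38 in A, against 4.96 and 4.87 in the parental line. BP14A and B overlapped, P14 lay above them, and A and the parental line lay above P14. All 3 means lay under the filter level, so the differences of −2.48 ± 0.39 in BP14A, −2.86 ± 0.39 in B and −1.74 ± 0.39 in P14 (SE) are approximate. P14 stood 1.12 above B, a value that was 1.74 without B day 1 replicate 1 and 0.50 without B day 1 replicate 2. Within P14 the gene stood at −1.17 against its EpiLCs, or at −0.73 without P14 EpiLC replicate 2.

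**Figure D3:**
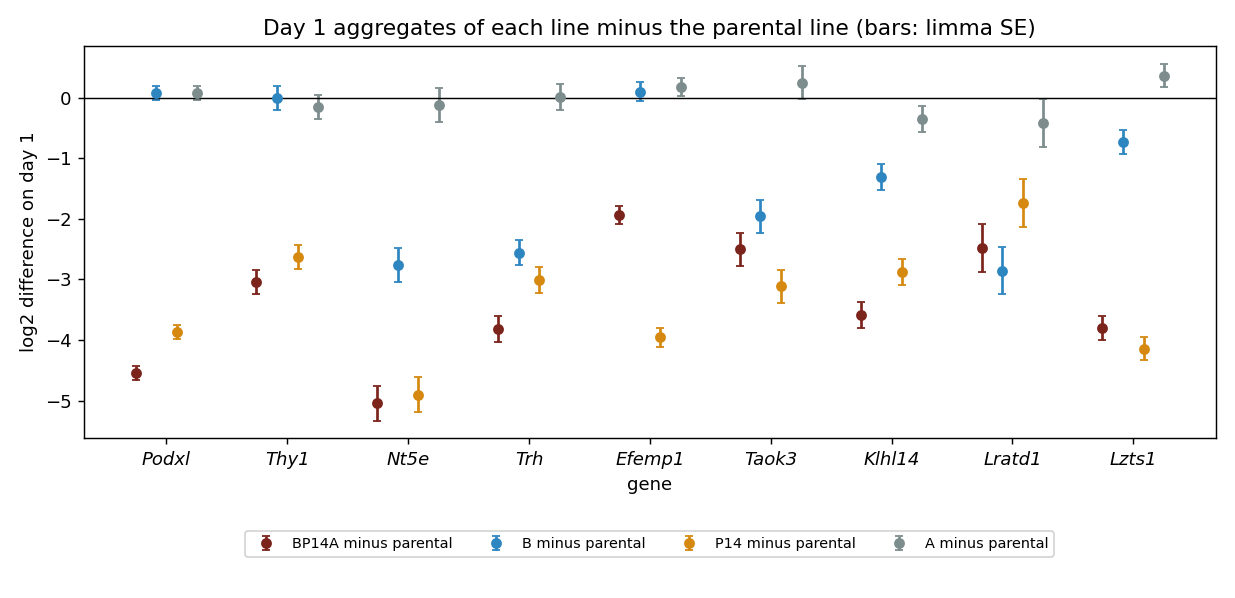
Day 1 difference of BP14A, B, P14 and A from the parental line (log2, bars are limma SE), by gene. BP14A and P14 lie at −1.74 or lower for all 9 genes, B lies near 0 for Podxl, Thy1 and Efemp1, and A lies between −0.42 and 0.37.

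Counted with the call used for all genes, 9 of 9 members were lower in BP14A, 5 of 9 in B and 9 of 9 in P14, beside 3.85%, 1.2% and 3.2% of all genes; the members were chosen for this, so the counts describe the choice. The 5 in B were Nt5e, Trh, Taok3, Klhl14 and Lratd1, with Klhl14 at −1.31 the nearest inside the limit of 1 and Lzts1 at −0.73 the nearest outside it. These values come from the brightest probe set of each gene. With the probe sets of a gene averaged, Taok3 in B stood at −0.97, short of that limit. The median of the 9 genes was −3.58 in BP14A, −1.31 in B and −3.12 in P14, beside medians over all genes of −0.02, 0.03 and −0.04. The 3 comparisons share the parental arrays. Against each other, P14 differed from B by −4.05 to −2.62 for Efemp1, Podxl, Lzts1 and Thy1 and by −2.14 to −0.45 for Nt5e, Klhl14, Taok3 and Trh. BP14A differed from P14 by −0.82 to 0.61 for 8 genes and by 2.02 for Efemp1. Relative to their own EpiLCs, 7 members in BP14A, 4 in B and 8 in P14 had both day 1 arrays below both EpiLC arrays, as did 31.1%, 29.7% and 30.9% of all genes.

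The array carries several probe sets for Nt5e, Podxl and Taok3, and the dimmer ones showed smaller differences. Of the 15 probe sets 14 passed the filter, and the values above come from the brightest of each gene. Podxl at its other probe set, whose highest group mean was 5.32, was lower by 0.58 ± 0.22 in BP14A and 0.91 ± 0.22 in P14 and differed by −0.05 ± 0.22 in B (SE). Nt5e at the probe set with a highest mean of 5.46 differed by −0.42, −0.16 and −0.87 in BP14A, B and P14. Taok3 at the probe set next in brightness showed −2.30, −1.66 and −2.95, close to the brightest, while the dimmest showed 0.11, 0.26 and 0.48. With all probe sets of a gene that pass the filter averaged, the differences in BP14A were −2.73 for Nt5e, −2.57 for Podxl and −1.32 for Taok3, and those in B −1.46 for Nt5e and −0.97 for Taok3. In P14 they were −2.88 for Nt5e, −2.39 for Podxl and −1.65 for Taok3. Changes from EpiLCs to day 1 of Nt5e and Taok3 in the line labelled A were 1.50 and 1.28 by that average, and that of Nt5e in BP14A was −0.98 where the brightest probe set gave −2.31. Whether the dim probe sets miss the transcript or read another form of it was not tested.

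**Figure D4:**
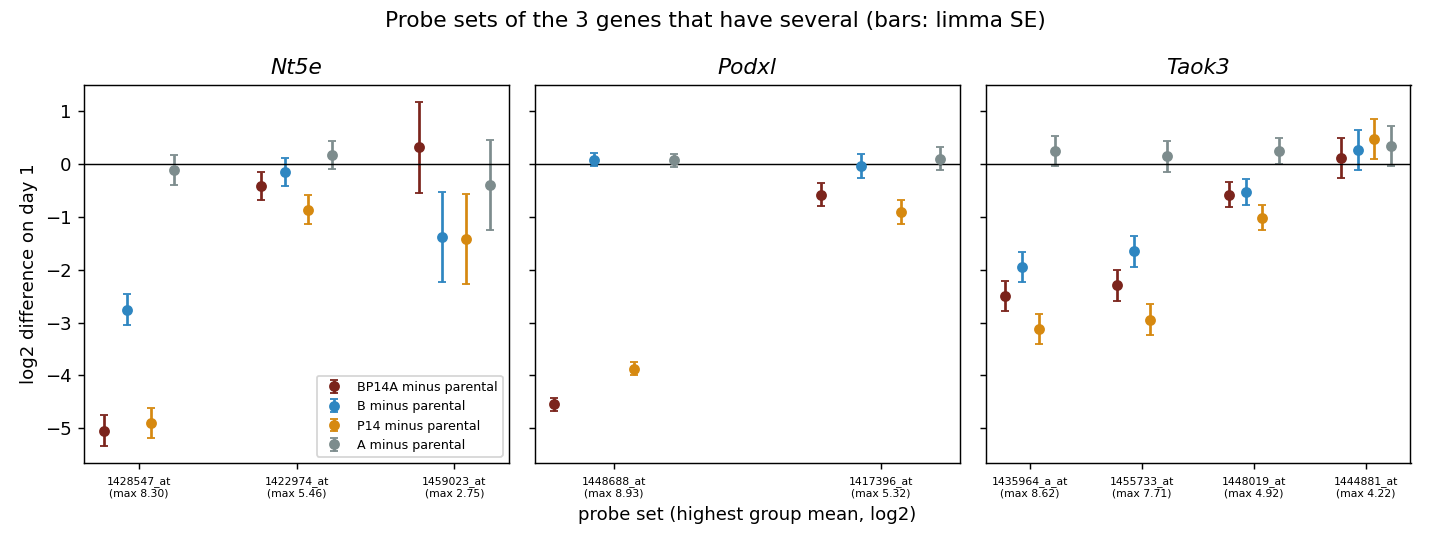
Day 1 difference from the parental line (log2, bars are limma SE) at every probe set of Nt5e, Podxl and Taok3, ordered by the highest group mean given under each name. The brightest probe set of Nt5e reaches −5.04 in BP14A and the next one −0.42.

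Markers of the epiblast and of early germ cells moved with the 9 genes. The summed log2 level of 10 epiblast markers on day 1 was 84.4 to 85.3 in BP14A, 98.6 to 99.3 in B, 92.3 to 92.5 in P14 and 106.9 to 107.1 in A, against 106.6 to 107.2 in the parental line. In limma 7, 3 and 6 of these 10 were called lower in BP14A, B and P14, with the epiblast transcription factor Pou3f1 at −4.88 ± 0.11 in BP14A (limma adjusted p = 1.03e-10). Early germ cell markers, 7 on the array, summed to 67.5 to 68.1 in BP14A, 55.8 to 57.6 in B, 62.0 to 62.7 in P14 and 44.4 to 45.9 in A, against 45.4 to 46.0 in the parental line. That list includes Tfap2c and Prdm1, the gene of Blimp1. BP14A carries transgenes for both, B for Blimp1 and A for Tfap2c, so the sums of these lines may in part read the transgenes. P14 carries neither of them, and B none for Tfap2c. With Prdm1 and Tfap2c left aside, the genes Dppa3, Ifitm3 and Kit were called higher in BP14A, B and P14, and Tdrd5 in BP14A only. Dppa3 was higher by 5.36, 2.68 and 3.645, Ifitm3 by 3.465, 1.79 and 3.1 and Kit by 2.025, 1.03 and 1.25. The order of the lines by both sums is BP14A, P14, B and then A and the parental line, as it is for Trh and Klhl14. Their part in the values of the 9 genes was not tested. No marker list of mesoderm, endoderm or trophectoderm had more than 1 call in any of these lines, and neural markers had 3, 2 and 2 called lower in BP14A, B and P14.

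A minority of the genes that work with the 9 members, or are their relatives, were called. Whether their share differs from that of all genes was not tested, and their lists were chosen with earlier results of these data known. Over 10 lists, 168 genes other than the members were tested, of which 2 were called higher and 12 lower in BP14A, 3 and 3 in B and 3 and 13 in P14. That is 8.33%, 3.57% and 9.52% called, beside 6.62%, 2.6% and 5.38% of all genes, of which 2.78%, 1.4% and 2.18% were called higher. In the line labelled A, 0 of 168 were called by limma and 8 had an unadjusted p under 0.05.

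Of 4 LRAT-domain genes tested, 2 were called lower in BP14A and 2 in P14, and of 2 genes of the LZTS family tested, 1 was called lower in each of these lines. Lratd2 was lower by 1.44 ± 0.08 in BP14A (limma adjusted p = 1.06e-07) and by 1.37 ± 0.08 in P14 (limma adjusted p = 2.37e-07). Plaat3, a phospholipase of that family, was lower by 1.19 in BP14A and 1.15 in P14. None of these 4 relatives was called in B, the line in which Lratd1 itself had its lowest mean. Lzts2, which curbs β-catenin signalling, was lower by 1.37 ± 0.10 in BP14A (limma adjusted p = 6.96e-07) and by 1.05 ± 0.10 in P14 (limma adjusted p = 8.74e-06). In P14 that call was lost under quantile normalization, at −0.96, and without P14 day 1 replicate 2, at −0.92.

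GPI-anchored surface proteins, the class of Thy1 and Nt5e, held the largest of these changes. Of 32 tested, 1 was higher and 4 lower in BP14A, 1 and 1 in B and 0 and 5 in P14, and their medians were −0.33, 0.21 and −0.06. Rtn4rl1, a relative of the Nogo receptor, was lower by 4.04 ± 0.17 in BP14A (limma adjusted p = 6.03e-09) and 3.46 ± 0.17 in P14 (limma adjusted p = 4.09e-08), to means below the filter level. Tdgf1, the Nodal co-receptor Cripto, was lower by 6.26 ± 0.08 in B (limma adjusted p = 1.73e-13). Bst2 was lower by 1.53 in BP14A and the adhesion protein gene Cd24a by 1.60 in P14. Among 21 genes of GPI anchor synthesis 0 were called by limma in any of the 4 lines.

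In the pathways of the other members few genes changed. Of 15 adenosine and nucleotide genes tested, 1 was called in these comparisons, the nucleoside transporter Slc29a1, higher by 1.10 ± 0.13 in P14 (limma adjusted p = 7.27e-05). Of 18 genes of the podocalyxin family, ERM proteins and apical polarity, the scaffold gene Pdzk1 was higher in BP14A, B and P14, by 2.56, 4.51 and 2.79, measured against a parental mean of 3.54 that lies below the filter level. Among 16 genes of neuropeptide processing, Cpe, a carboxypeptidase that trims prohormones, differed by −1.16 ± 0.14 in BP14A (limma adjusted p = 5.88e-05) and by −1.29 ± 0.14 in P14 (limma adjusted p = 3.24e-05). Of 20 genes of TAO kinases and the p38 and JNK pathway, Map3k5, a stress-activated kinase, was lower by 1.30 ± 0.07 in BP14A (limma adjusted p = 4.85e-08) and 1.47 ± 0.07 in P14 (limma adjusted p = 3.21e-08). Map2k6, which activates p38, was higher by 1.63 ± 0.09 in B (limma adjusted p = 5.37e-07), and Jun differed by −1.29 in BP14A and −1.16 in P14. The call of Jun in BP14A was lost without BP14A day 1 replicate 2 or parental day 1 replicate 1, and the one in P14 without P14 day 1 replicate 2, at −0.70, or parental day 1 replicate 1. Among 25 Cullin-3 and Kelch-like genes Klhl23 was lower by 1.07 in BP14A, a call lost without BP14A day 1 replicate 2, and Klhl4 differed by −2.05 in P14, with its P14 and parental means both below the filter level. Of 15 fibulin and elastic fibre genes, Fbln5 was called lower in B and Fbln2 in P14, both below the filter level there. Fbln5 was at −0.90 without B day 1 replicate 2, and Fbln2 was at −0.71 without P14 day 1 replicate 1 and at −2.35 without replicate 2. The call of Fbln2 was lost without P14 day 1 replicate 1 and without either parental day 1 array (limma adjusted p = 0.0876 and 0.0806). Pcsk4 in B had both means below the filter level, and Negr1 in B and Chgb in P14 were higher than a parental mean below it. The call of Pcsk4 was lost without B day 1 replicate 2, at −0.80, or parental day 1 replicate 1, and that of Negr1 without any 1 of its 4 arrays. The call of Chgb was lost without P14 day 1 replicate 1, at 0.94, or either parental array, and with arrays centred, quantile normalization, no filter, probe sets averaged or only the arrays compared, where its limma adjusted p ran from 0.0504 to 0.103. It was kept with the replicate block and without P14 day 1 replicate 2. With only the arrays compared in the fit, the calls of Pcsk4, Fbln5 and Negr1 in B and of Chgb, Fbln2 and Jun in P14 were all lost.

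Over the 10 group means, which share arrays, lines and scaling, the members fell into patterns that can be described by Pearson r. Podxl, Thy1, Lzts1 and Klhl14 had r of 0.8835 to 0.9729 with each other, Nt5e and Taok3 had 0.9701, and Trh had its highest r, 0.756, with Efemp1. The genes outside the 9 most like Podxl were Cdh10, Rspo1 and Tlcd3b (r of 0.9965, 0.996 and 0.9954). Those most like Lzts1 were Ppp1r14c, Arap3 and Sh3bp2 (0.9964, 0.9931 and 0.9922), and those most like Thy1 were Lratd2, Rgs10 and Klc3 (0.9944, 0.9908 and 0.9899). Klhl14 was most like Pim2, Cgnl1 and Lama5 (0.9925, 0.9875 and 0.982). Mal2 came first for both Taok3 (0.9939) and Nt5e (0.9822), followed by Eloa and Ugt8a for Taok3 and by Plpp2 and Ocln for Nt5e. Trh was most like Abcb6, Alg10b and Krt8 (0.987, 0.9857 and 0.9839), Efemp1 like Mex3c, Tspan12 and Fam171b (0.9802, 0.9787 and 0.9774), and Lratd1 like Cdk8, Rpp30 and Hsd17b11 (0.9858, 0.9798 and 0.9655). A high r does not mean a change of like size, since Cdk8 differed by −0.32 between BP14A and the parental line on day 1, where Lratd1 differed by −2.48.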

How the data were processed

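Purified total RNA was turned into biotinylated cRNA in a single amplification cycle and hybridised, per the labels' protocols. The authors deposited log2 values, 1 for each probe set on each array; the base of the logarithm was inferred from their range. How they were normalized and summarised, and with which software, is not given in the sources read. No detection calls were used. The platform annotation gave 1 gene for 34945 of 45101 probe sets and several for 932; 64 control probe sets were left out. A probe set entered the tests if at least 1 group mean reached 3.95, the 40th percentile of all values, and each gene was represented by its probe set with the highest mean. limma 3.58.1 in R 4.3.3 fitted 10 group means to all 20 arrays (10 residual and 1.79 prior degrees of freedom), with two-sided p-values adjusted over 14010 genes. Counts and summaries were computed with pandas 2.3.3 (Python 3.11.15). The fit was tested on simulated data. The members and gene lists were chosen with earlier results of these data known. Named genes are the members, the 2 largest called changes per list and line, the 3 genes most like each member, and markers. Replicate numbers do not pair the arrays: same-numbered deviations of 45 pairs of groups correlated at −0.065 to 0.196. Leaving out each array, scaling, filter, probe-set averaging, fewer arrays and a replicate block were tried as alternatives.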

Additional observations from a re-analysis of the deposited data

Results flagged for a closer look

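Several members changed in opposite directions between EpiLCs and day 1 in 2 lines, with every day 1 array on the same side of every EpiLC array within a line. Of all genes, 31.1%, 29.7% and 30.9% lay below their EpiLC arrays in this way in BP14A, B and P14, and the share with opposite directions was not computed. The parental rises of Podxl, Klhl14, Lratd1 and Thy1 were not called, at 0.27, 0.41, 0.16 and 0.69 (limma adjusted p = 0.0991, 0.174, 0.795 and 0.0181). The differences between the lines' changes below are on the log2 scale, were not tested except that of the line labelled A, and all rest on arrays by which the genes were chosen, the parental day 1 arrays included. Against the parental line, the change in BP14A was lower by the following sizes: Nt5e −4.84, Podxl −4.42, Klhl14 −3.56, Thy1 −2.91, Taok3 −2.46 and Lratd1 −2.25. In P14 it was −4.39 for Nt5e, −3.91 for Podxl, −3.41 for Efemp1, −2.92 for Taok3, −2.79 for Klhl14, −2.54 for Thy1 and −1.33 for Lratd1. In B it was −3.04 for Lratd1, −1.91 for Taok3 and −1.34 for Klhl14. Klhl14 in the line labelled A moved by −0.26 and in the parental line by 0.41, a difference of −0.66 that a fit over all genes did not call (limma adjusted p = 0.998). Against B, the change in P14 was −4.15 for Podxl, −3.64 for Efemp1 and −2.77 for Thy1, and the change in BP14A was −4.66 for Podxl and −3.14 for Thy1. Efemp1 was 0.70 higher on day 1 than in EpiLCs of BP14A and 0.71 lower in P14, a difference of 1.41.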

How the results depend on the processing

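The 63 tested member values kept their side of the threshold under every alternative run, except Taok3 in the parental line with probe sets averaged (0.96). Direction changed in 43 recomputed member values, all of results at most 0.41 in size. The counts of members called, 0 in each EpiLC comparison and in A against parental on day 1, and 4 from EpiLCs to day 1 in A, were the same in every setting run; the 4 in the parental line were 3 with probe sets averaged and 4 in the other settings. Over all genes, EpiLC calls against the parental line were 2 in BP14A, 11 in B, 5 in P14 and 4 in A. With only the arrays compared they were 0, 3, 1 and 0; BP14A had 1 with arrays centred and 1 with the replicate block, and A had 2 with probe sets averaged. Leaving out 1 array gave 1 to 10 in BP14A (10 without parental EpiLC replicate 1), 12 to 26 in B (26 without parental EpiLC replicate 2), 5 to 16 in P14 (16 without parental EpiLC replicate 1) and 3 to 9 in A (9 without A EpiLC replicate 2 or parental EpiLC replicate 1). A against the parental line on day 1 had 4 calls, 1 with arrays centred, 2 under quantile normalization, 2 with probe sets averaged, 0 with only the arrays compared and 1 to 12 with 1 array left out (12 without parental day 1 replicate 2). B against the parental line on day 1 had 364 calls and 142 with only the arrays compared, where fewer arrays estimate the spread; its 6 calls among the 168 listed genes were 10 with probe sets averaged and 3 with only the arrays compared. The other causes were not tested. The replicate block changed no member's call; among the named list genes it changed none. Where an array was left out, its group's remaining array took its spread from the other groups. With 2 arrays a group, precision is limited by their number, and levels under 3.95 have only approximate differences.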
